A study of Anguilla anguilla with 6 samples.

Results

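The histone transcripts of the eel ovary were taken from the authors' deposited table by description and name. A gene model was a member if its description opened with histone H1, H2A, H2B, H3, H4 or core histone, or if it was named b4, the linker histone of oocytes, and enzymes were left out. This gave 53 of 45974 gene models, of which 51 were histone proteins and 2 were models of HINFP, a transcription factor of histone H4 genes that the wording of its description brings in. The rule took 55 rows before 2 models of MYSM1, a deubiquitinase of histone H2A, were left out as enzymes. The 51 histone models comprised 8 linker histones, 10 models each of H2A, H2B and H4, 8 of H3 and 5 of macroH2A.

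The samples were ovaries of 6 European eels (Anguilla anguilla) from a commercial farm, each injected with gonadotropins, which stimulate the ovary, once a week for 4 weeks. By their labels 4 eels responded to the injections and 2 did not, and neither the measure of a response nor the age of the eels or the preparation is stated. All animals had the treatment, so neither group is an untreated control. Each library was made from pooled pieces of the front, middle and rear gonad of 1 eel, so it mixes oocytes with follicle cells and other tissue.

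Histones package DNA into nucleosomes, in which DNA is wound around a core of H2A, H2B, H3 and H4, while a linker histone of the H1 family binds where the DNA enters and leaves. Growing oocytes of fish and frogs stock histone mRNA and protein for the embryo, and carry an oocyte linker histone, called B4 in the frog Xenopus, in place of the H1 of body cells. Most core histone mRNAs of dividing animal cells are made in S phase and end in a stem-loop instead of a poly(A) tail, whereas variants such as H2A.Z and H3.3 are made outside S phase from mRNAs with a tail. The libraries were made with an mRNA kit, per the labels' protocols, and kits of this kind capture RNA by its poly(A) tail. The part that such capture has in the levels below was not tested.

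Levels are group means of scaled counts, meaning counts divided by a size factor per library, and folds and shares between models are given per kilobase (kb) of transcript. Ranks by mean and sums stated in scaled counts alone are not divided by length. The log2 values are responder over non-responder. Values per library were not used here, since the headings of those columns match no library's label, so the means carry no SD. A model was called where the authors' deposited table, which credits DESeq, has an adjusted p under 0.05. The labels do not name the table's conditions: its overall means weight condition A as 2 libraries and condition B as 4, so A was read as non-responders and B as responders. All models together summed to 12635190 scaled counts in the non-responder means against 11695525 in the responder means, and setting these sums equal adds 0.11 to every log2. In bulk tissue, fewer cells of a type and less RNA per cell cannot be told apart.

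No histone model was called between responders and non-responders. Of the 53 members, 52 had a p per the authors' deposited table, and the adjusted p was 1 for all 52. The DESeq values thus called 0 members at an adjusted p under 0.05, 0 under 0.1, and 0 had an unadjusted p under 0.05. Over all 37072 models with a p, 68 were called (0.183%), of which 45 were higher (0.121%) and 23 lower (0.062%) in responders. At an adjusted p under 0.1 the share was 0.259%, and 1360 had an unadjusted p under 0.05 (3.67%). The smallest unadjusted p among the 51 histone models was 0.0744. The authors' test called 1 of the 2417 models whose mean reached 1000 scaled counts, and the smallest difference it called at any level was 1.35 on the log2 scale. The 4 abundant histones differed by at most 0.37, and no difference of that size was called in any model.

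In 44 of the 51 histone models the mean reached 5 scaled counts, and 26 of these were higher in value in responders and 18 lower, before any test. The median of their log2 values was 0.064, with an interquartile range of -0.11 to 0.37, and 30 of them lay within 0.5 of 0. Of all models at that level 50.6% lay above a ratio of 1, with a median of 0.0066 and an interquartile range of -0.28 to 0.35. Equal group sums put 33 of the 44 histone models above a ratio of 1, with a median of 0.18, and 61.1% of all models, with a median of 0.12. The linker histones had 3 models above and 4 below a ratio of 1 (median log2 -0.083), a median that turns to 0.029 with 4 above and 3 below when the group sums are set equal. The 34 models of H2A, H2B, H3 and H4 had 23 above and 11 below, with a median of 0.13, or 28 above and 6 below with a median of 0.24 under equal sums.

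**Figure D1:**
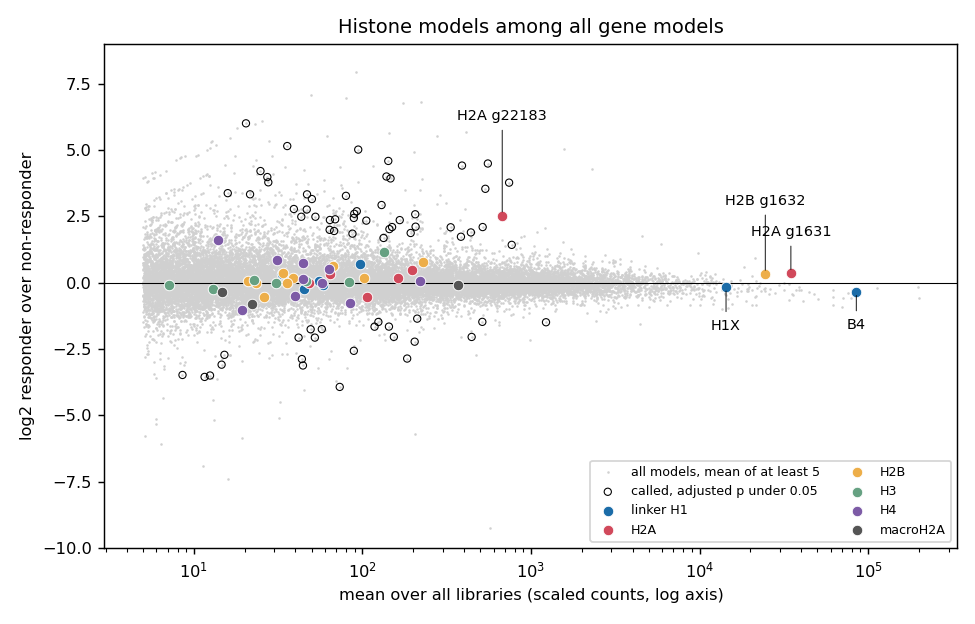
Each gene model with a mean of at least 5 scaled counts and a finite log2 is drawn by its mean over all libraries (log axis) and its log2 of responder over non-responder, with histone models coloured by class and called models ringed. The 4 abundant histones stand far to the right of the other 40 and close to 0, and no histone is ringed.

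B4 was the most abundant histone transcript, and among the most abundant transcripts of any kind. It (b4, g1568, described as protein B4 with linker histone B4 as another description) ranked 5 of 45974 models by mean over all libraries, and 7 by mean per kb. It averaged 99024 scaled counts in non-responders against 78028 in responders per the authors' deposited table, a log2 of -0.34 (unadjusted p = 0.241). The models with higher means were ZP2, a further egg envelope protein and 2 models with no name. B4 had the lowest similarity to its best protein match of all 51 histones, 0.582 to the Xenopus protein, against a median of 0.974.

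H1X was the other abundant linker histone. H1X (h1x, g32), a linker histone variant of body cells in mammals, averaged 15529 scaled counts in non-responders against 13758 in responders per the authors' deposited table (log2 -0.17, unadjusted p = 0.606). Per kb of transcript B4 stood 7.05-fold above H1X in non-responders and 6.27-fold above it in responders.

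The linker histone models named h1 stood far below B4 and H1X. The 6 of them, best matched to H1 of rainbow trout, had means over all libraries from 1.27 to 96.9 scaled counts. Their summed level was 243 scaled counts per kb in non-responders against 280 in responders, so that B4 alone stood 339-fold and 232-fold above all of them together. The highest was g36766, averaging 67.9 scaled counts in non-responders against 111 in responders per the authors' deposited table (log2 0.71, unadjusted p = 0.227). The next, g18838, was at 60.3 against 57.0 per the authors' deposited table (log2 -0.083). The ratio of B4 to these H1 models was thus 0.55 lower in responders on the log2 scale, a difference without a test, as no spread between animals was at hand.

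A single H2A model and a single H2B model carried nearly all the core histone signal of the members. The H2A model (h2a, g1631) averaged 29160 scaled counts in non-responders against 37614 in responders per the authors' deposited table (log2 0.37, unadjusted p = 0.450). The H2B model (h2b3, g1632) averaged 20849 in non-responders against 26366 in responders per the authors' deposited table (log2 0.34, unadjusted p = 0.596). They ranked 24 and 33 by mean among all models, and 21 and 26 by mean per kb. Their identifiers are consecutive, and per kb the H2A model stood 1.30-fold above the H2B model in non-responders and 1.33-fold in responders. Per kb g1631 was 87.2-fold above the next highest H2A member in non-responders (g25363) and 32.6-fold in responders (g22183). Likewise g1632 was 51.2-fold above the next H2B member in non-responders (g39339) and 48.6-fold in responders (g704). The next member was thus a different model in each group. Models outside the rule came nearer to both g1631 and g1632.

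The pair stood high among transcripts of like abundance. Of the 127 models whose mean reached 10000 scaled counts, 97 lay below a ratio of 1 and 30 above, and their median log2 was -0.24, or 80 below and 47 above with a median of -0.13 under equal sums. By log2, g1631 was number 5 from the top of these 127 and g1632 number 7, while H1X was number 53 and B4 number 87. The authors' test nevertheless gave the pair large p-values for such a difference. Among the abundant models whose log2 differed in size by at most 0.05 from that of g1632, all 19 others had a smaller p, with a median of 0.305. For g1631 there were 15 such models, with a median p of 0.263, and 2 of them had a larger p.

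**Figure D2:**
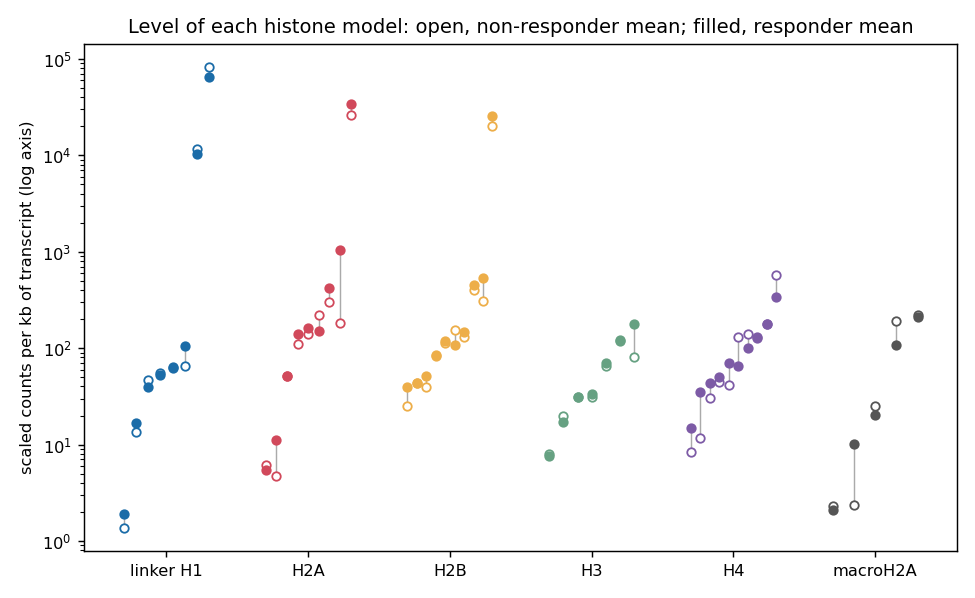
Each histone model with a non-responder mean above 0 is drawn by its scaled counts per kb of transcript (log axis), open for the non-responder mean and filled for the responder mean, with a line joining both means of 1 model. B4, H1X, H2A g1631 and H2B g1632 stand above 10000 per kb in both groups, and no other member exceeds 1046.

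The remaining H2A models stood far below g1631, and 1 of them differed widely without passing the test. The H2A model g22183 averaged 161 scaled counts in non-responders against 932 in responders per the authors' deposited table, the largest log2 of the 44 histones whose mean reached 5 (2.54), at an unadjusted p = 0.501. Of the 36 models with a mean between 200 and 1000 and a log2 of at least 2 in size, 23 had an unadjusted p under 0.05 and 10 were called, and 3, g22183 included, had a p as large as that of g22183. H2A g25363 averaged 155 against 216 per the authors' deposited table (log2 0.48, unadjusted p = 0.210). H2A g44383 averaged 149 against 169 (log2 0.19), and H2A g35805 averaged 134 against 92.9 (log2 -0.53, unadjusted p = 0.336), per the authors' deposited table. In 7 of the 10 H2A models the mean reached 5, and 6 of these lay above a ratio of 1 (median log2 0.34), while g13938 was listed at 0 in both groups.

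Among the other H2B models g704 had the smallest p of the 51 histone models. It averaged 155 scaled counts in non-responders against 264 in responders per the authors' deposited table (log2 0.77, unadjusted p = 0.0744). H2B g13939 averaged 49.2 against 76.0 (log2 0.63, unadjusted p = 0.166) and H2B g39339 averaged 93.0 against 106 (log2 0.19, unadjusted p = 0.689) per the authors' deposited table. The mean reached 5 in all 10 H2B models, 7 of which lay above a ratio of 1, or 9 under equal sums, and the class median log2 was 0.19. The median similarity of the class to its best protein match was 1, which does not measure how alike the transcripts of these copies are. Reads of the copies may not have been told apart by the authors' counting, whose handling of shared reads is not given in the sources used here. The same holds for the H2A, H3 and H4 models, with median similarities of 0.970, 0.986 and 0.988.

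The H3 members stood far below the 4 abundant histones. The 8 models of H3 summed to 275 scaled counts in non-responders against 368 in responders, or 356 against 461 per kb, and the mean reached 5 in 7 of them, 4 above and 3 below a ratio of 1, or 6 and 1 under equal sums, with a class median log2 of 0.017. The highest, g18837, averaged 73.8 against 164 per the authors' deposited table (log2 1.15, unadjusted p = 0.442). H3 g35642 averaged 82.1 against 83.1 (log2 0.017), H3 g44384 averaged 44.7 against 47.1 (log2 0.074), and H3 g25787 averaged 30.8 against 30.6 (log2 -0.012) per the authors' deposited table. The H3 model g11140, best matched to a fungal H3, was listed at 0 in non-responders with 1.32 in responders per the authors' deposited table.

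The H4 members stood far below the 4 abundant histones as well. The 10 models of H4 summed to 613 scaled counts in non-responders against 619 in responders, and 6 of them lay above and 4 below a ratio of 1 (median log2 0.10). The highest, g18836, averaged 213 against 221 per the authors' deposited table (log2 0.052, unadjusted p = 0.967). H4 g44494, of only 204 bases and best matched to a chicken type VIII H4, averaged 116 against 68.8 (log2 -0.75, unadjusted p = 0.214) per the authors' deposited table. The other 2 named H4 models per the authors' deposited table were g19693, at 49.2 against 71.0 (log2 0.53, unadjusted p = 0.237), and g38018, at 58.0 against 57.6 (log2 -0.012). Summed per kb, the class was at 1282 in non-responders and 1024 in responders, of which g44494 alone held 568 and 337, since a short transcript raises a level per kb.

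MacroH2A, an H2A variant with a large extra domain that is linked to silent chromatin in mammals, stood far below the abundant histones. The macroH2A1 model g22863 (h2ay) ranked 5231 of 45974 models by mean. It averaged 382 scaled counts in non-responders against 363 in responders per the authors' deposited table (log2 -0.072, unadjusted p = 0.821). The single macroH2A2 model g44519 (h2aw), of 163 bases, averaged 30.9 against 17.8 per the authors' deposited table (log2 -0.80, unadjusted p = 0.120). The 2 further named models of macroH2A1 per the authors' deposited table were g22444, at 17.0 against 13.4 (log2 -0.34), and g35212, at 0.547 against 2.34 (log2 2.10). The last is too low to read a ratio from. In the 3 models whose mean reached 5 the log2 was below 0, with a median of -0.34, and g22863 turns to 0.040 under equal sums.

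HINFP, the zinc finger factor that activates H4 genes at the start of S phase in mammals, was not a histone but met the rule. Its longer model g10592 averaged 1450 scaled counts in non-responders against 1945 in responders per the authors' deposited table (log2 0.42, unadjusted p = 0.432). The shorter model g22874 leaned the other way, at 128 against 78.8 per the authors' deposited table (log2 -0.70, unadjusted p = 0.0697), the smallest p of any member. Neither was called.

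Among the 51 histone models B4 held a smaller share of the signal in responders in value, and H2A g1631 and H2B g1632 larger ones. Together the 51 histone models made up 1.32% of the scaled counts summed over all models in non-responders against 1.36% in responders. Of the sum per kb over these 51 models, B4 made up 56.6% in non-responders against 46.1% in responders. H2A g1631 made up 18.2% and 24.2%, H2B g1632 14.0% and 18.3%, and H1X 8.04% and 7.36%, which left 3.19% and 4.03% for the other 47 models. These shares leave out 14 models described only as histone, set out below. Those 14 summed to 40739 scaled counts per kb in non-responders and 37267 in responders, beside 145615 and 140898 for the 51. Per kb B4 stood 1.76-fold above the H2A and H2B pair together in non-responders and 1.08-fold above it in responders, a difference of -0.70 on the log2 scale. These are ratios of group means with no error, of models that were not called.

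**Figure D3:**
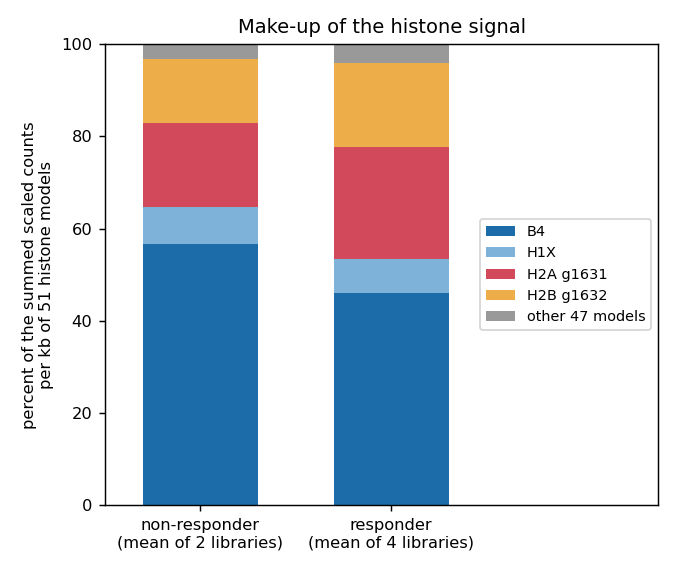
Stacked bars give each model's percent of the summed scaled counts per kb of the 51 histone models, for the mean of 2 non-responder and of 4 responder libraries. The B4 segment spans 56.6% in non-responders and 46.1% in responders, and the H2A and H2B segments are taller in responders. Models described only as histone are not included.

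A further 14 models were described only as histone, with or without a short name such as H2A.Z, and fall outside the rule by that wording. They included several abundant variants, so they are set beside the members, and were chosen after their values were seen. H2A.Z (h2az, g17105), a variant found at promoters, averaged 10690 scaled counts in non-responders against 9300 in responders per the authors' deposited table (log2 -0.20, unadjusted p = 0.458). A further H2B model (h2b3, g1271) averaged 12130 against 9752 per the authors' deposited table (log2 -0.31, unadjusted p = 0.410), beside a log2 of 0.34 for g1632 of the same name. Per kb g1632 stood 1.60-fold above g1271 in non-responders and 2.52-fold in responders, and H2A g1631 stood 1.98-fold and 2.94-fold above H2A.Z. The highest of 5 models named h33, the replacement histone H3.3, was g8182, at 10147 against 11340 per the authors' deposited table (log2 0.16, unadjusted p = 0.653).

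None of these 14 was called, against 0.183% of all models. In 13 of them the mean reached 5, with 7 above and 6 below a ratio of 1, or 10 and 3 under equal sums, and a median log2 of 0.032. The H1.0 model (h10, g2996), a linker histone of cells that have stopped dividing in mammals, was the only one of them with an unadjusted p under 0.05, averaging 235 scaled counts in non-responders against 439 in responders per the authors' deposited table (log2 0.90, unadjusted p = 0.0219, adjusted p of 1). Of the 2 models of H2A.X, which is phosphorylated at DNA breaks, g13524 averaged 62.6 against 147 (log2 1.23, unadjusted p = 0.141) and g4841 averaged 161 against 180 (log2 0.16) per the authors' deposited table.

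With these models added, the core classes stood at unequal levels. Per kb, H2A summed to 42119 scaled counts in non-responders against 49188 in responders over 15 models, and H2B to 34347 and 37523 over 11. H3 summed to 13619 and 14186 over 14 models, nearly all of it from the models named h33, which held 13260 and 13724. H4, with its 10 member models alone, summed to 1282 and 1024, which was 32.9-fold below H2A in non-responders and 48.1-fold below it in responders. Nucleosomes hold these 4 core histones in equal number, and their summed transcript levels in this table were unequal. How far the capture by poly(A) tail, copies that share reads or models under other descriptions enter these sums was not tested.

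**Figure D4:**
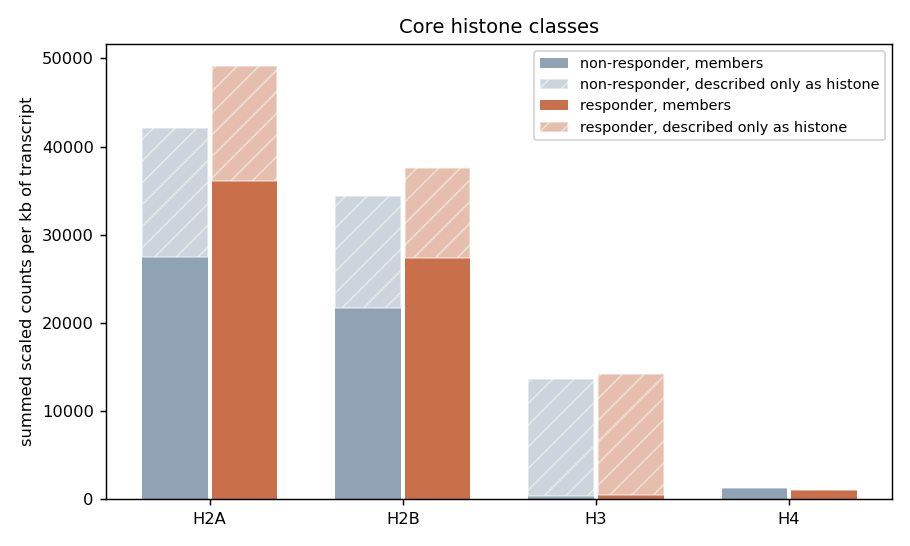
Bars give the summed scaled counts per kb of transcript for each core histone class, solid for members and hatched for models described only as histone, in non-responder and responder means. H3 is almost wholly hatched, and H4 stays at 1282 and 1024 where H2A reaches 42119 and 49188.

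Many histone models had consecutive identifiers, which the rule did not use. Of the 51 histone models, 27 (52.9%) stood in 11 runs of consecutive numbers, 5 runs of 3 and 6 of 2, although histones were 0.111% of all models. In 10 of the 11 runs all models were of different classes, such as g18836, g18837 and g18838, which are H4, H3 and H1. Histone genes of many animals lie in clusters that hold the classes side by side, and the sources used here do not say whether the numbers follow the genome. Neighbours did not share their direction throughout. Of 11 adjacent pairs in which both models had a mean of at least 5, 6 had the same sign, among them g704 with g705 (log2 0.77 and 0.85) and g1631 with g1632 (log2 0.37 and 0.34). H4 g22182 and H2A g22183 were the most unlike pair, at log2 -0.49 and 2.54.

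Genes that make, carry or process histones were read as lists beside the members, and none of their models was called. The list of histone chaperones and remodelling factors held 64 models under 27 names, so its counts are of models and not of genes. In 55 of the 64 the mean reached 5. Of these, 18 lay above and 37 below a ratio of 1, with the list's median log2 at -0.12, against 0.0066 for all models. Under equal sums 27 lay above and 28 below, with the median at -0.010. Nucleoplasmin (nupl, g9342), which stores H2A and H2B in Xenopus oocytes, averaged 21503 scaled counts in non-responders against 18464 in responders per the authors' deposited table (log2 -0.22, unadjusted p = 0.468). NASP (g13221), a carrier of H3 and H4 that also binds linker histones, averaged 12941 against 9105 per the authors' deposited table (log2 -0.51, unadjusted p = 0.119). TONSL (g26242), which binds newly made H4 at replication forks, had the smallest p of the list, at 153 against 99.4 per the authors' deposited table (log2 -0.62, unadjusted p = 0.115).

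Factors of histone mRNA processing had a median log2 close to that of the chaperones. Of 25 models whose mean reached 5, 10 lay above a ratio of 1 and 15 below, the median log2 being -0.13 or, under equal sums, -0.014. The 10 above were models of SRRT, CPSF2, symplekin and ERI1. Other models of SRRT, CPSF2 and ERI1 lay below, among them the more abundant ERI1 model g15345 (log2 -0.16). All models of SLBP, NPAT, ZNF473, LSM11 and CASP8AP2 at that level lay below, as did those of CPSF3 and CSTF2. NPAT (g14342) was at log2 -0.30, ZNF473 (zn473, g28913) at -0.36 and LSM11 (g26103) at -0.16. CASP8AP2 (c8ap2, g5541), needed for processing of the histone mRNA end, averaged 2689 against 2465 scaled counts per the authors' deposited table (log2 -0.13). The cleavage factor CPSF2 (g19430) averaged 1456 against 1489 per the authors' deposited table (log2 0.033). A low model of SLBP (g35741), the protein that binds the stem-loop, averaged 61.4 against 38.5 per the authors' deposited table (log2 -0.68, unadjusted p = 0.161). More abundant SLBP models were g18061 (slbp1), at 799 against 649 (log2 -0.30), and g28259, at 537 against 451 (log2 -0.25), per the authors' deposited table. A symplekin model (sympk, g41775) was at 3.67 against 0.772 per the authors' deposited table, too low to read a ratio from.

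S phase models lay mostly below a ratio of 1, with none called. The list held 61 models under 24 names, so its counts are of models and not of genes. Of 55 S phase models whose mean reached 5, 15 lay above and 40 below, the median log2 being -0.15. Under equal sums 25 lay above and 30 below, and the median was -0.036. The ribonucleotide reductase subunit M2 (rir2, g12220) averaged 9465 scaled counts in non-responders against 8548 in responders per the authors' deposited table (log2 -0.15), and PCNA (g7408), the sliding clamp of DNA polymerases, averaged 4290 against 3836 (log2 -0.16). Geminin (gemi, g32796), which blocks a second round of replication, averaged 4237 against 2556 per the authors' deposited table (log2 -0.73, unadjusted p = 0.0177, DESeq adjusted p = 0.964). A low model of the large subunit of ribonucleotide reductase (rir1, g37684) averaged 83.7 against 41.2 (log2 -1.02, unadjusted p = 0.0291) per the authors' deposited table. The most abundant rir1 model, g24791, was at 1035 against 748 (log2 -0.47, unadjusted p = 0.141) per the authors' deposited table. Further M2 models went the other way from g12220, with g10947 at 1322 against 1347 (log2 0.027) and g28565 at 458 against 780 (log2 0.77).

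High mobility group proteins, which bend DNA and bind chromatin, had 3 models above and 7 below a ratio of 1 (median log2 -0.16, or -0.051 with equal sums). HMGB2 (g12976) averaged 11809 against 8987 scaled counts (log2 -0.39) and HMGB1 (g8890) averaged 7816 against 6045 (log2 -0.37) per the authors' deposited table. An HMG-T model (hmgt, g36537) stood higher in responders in value, at 211 against 369 per the authors' deposited table (log2 0.81, unadjusted p = 0.0291). The more abundant HMG-T model g10833 was at 776 against 713 (log2 -0.12), and g43159 at 90.9 against 80.7 (log2 -0.17), per the authors' deposited table.

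**Figure D5:**
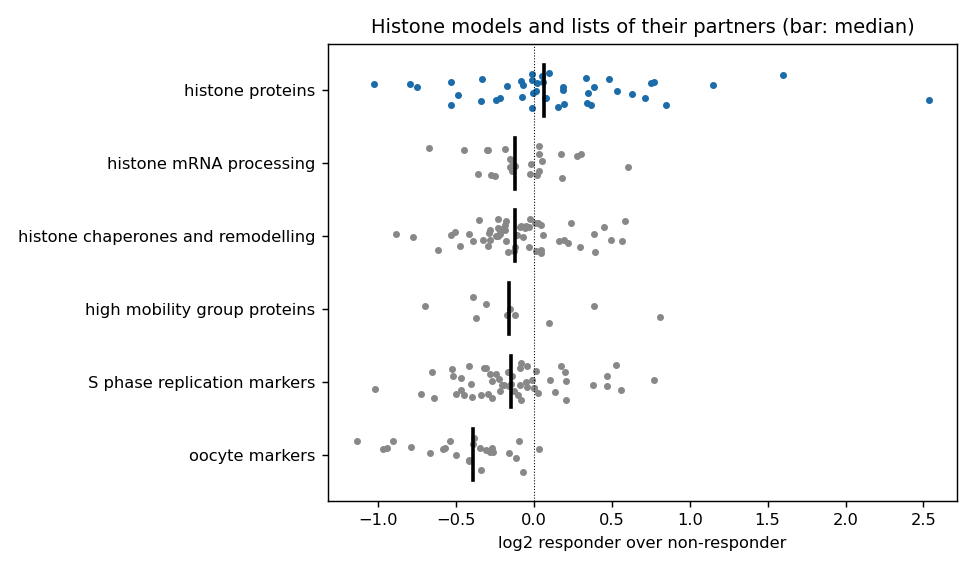
Each point is a gene model with a mean of at least 5 scaled counts, placed by its log2 of responder over non-responder, with a bar at the median of each list. The histone models have a median of 0.064, the 4 chromatin and S phase lists have medians from -0.16 to -0.12, and the oocyte markers have a median of -0.39.

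Oocyte markers and B4 both had lower values in responders. The mean reached 5 in all 25 oocyte marker models other than B4, of which 24 lay below a ratio of 1 and 1 above, or 22 and 3 under equal sums. Most of the 25 were models of egg envelope proteins (zp1 to zp4), so counts and sums largely describe that family. Outside it the log2 ran from -0.95 for ZAR1 (g14809) to 0.029 for GDF9 (g5262). There BMP15 (g4183) was at -0.094, DAZL (g17322) at -0.16 and NOBOX (g9131) at -0.54. None was called, and their median log2 was -0.39 (-0.28 with equal sums), beside -0.34 for B4. Their summed level was 770243 scaled counts in non-responders against 530698 in responders. ZP2 (g45297), an egg envelope protein and the highest of them, averaged 254959 against 171541 per the authors' deposited table (log2 -0.57, unadjusted p = 0.0742). The H2A and H2B pair, not called and at log2 0.37 and 0.34, lay above all 25 of these markers, whose highest log2 was 0.029. H1X, at -0.17, lay within the markers' range. Of the abundant models outside the rule, H2A.Z (-0.20) and H2B g1271 (-0.31) lay within that range and H3.3 g8182 (0.16) lay above it. The part of the oocyte share of each ovary in these values was not tested.

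Markers of other cells of the ovary gave no called model. Follicle cell markers summed to 1440 scaled counts in non-responders against 1923 in responders over 16 models. Of 13 follicle models whose mean reached 5, 8 lay above and 5 below a ratio of 1 (median log2 0.36). The rise in the sum lay mainly in CYP17A1 (cp17a), with g10692 at 222 against 556 and g22995 at 179 against 392 per the authors' deposited table. The highest model, 3-beta-hydroxysteroid dehydrogenase (3bhs, g10190), averaged 671 against 546 per the authors' deposited table. Leukocyte markers summed to 73.4 and 98.2 over 10 models, led by SPI1 (g13044, log2 0.71), with 1 model of CSF1R at 0 in both groups. Of 5 leukocyte models whose mean reached 5, 3 lay above a ratio of 1, or 4 under equal sums (median log2 0.70). Erythrocyte markers summed to 45.8 and 32.8 over 5 models, led by SLC4A1 (b3at, g2522, log2 -0.81), with 1 carbonic anhydrase model at 0 in both groups and no model matched for hemoglobin. The mean reached 5 in only 2 erythrocyte models, 1 above and 1 below a ratio of 1. Endothelial markers summed to 242 and 170 over 12 models, led by the VE-cadherin model g17569 (cadh5), which averaged 95.4 against 37.4 per the authors' deposited table (log2 -1.35, DESeq adjusted p = 0.195), with 1 VWF model at 0 in both groups. Most of the difference in that sum was g17569, and of 8 endothelial models whose mean reached 5, 4 lay above and 4 below a ratio of 1 (median log2 -0.098, or 0.013 under equal sums).

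Smooth muscle markers summed to 4723 and 4531 over 25 models, led by MYLK (g8591, log2 -0.11). Of 11 smooth muscle models whose mean reached 5, however, 8 lay above and 3 below a ratio of 1 (median log2 0.17). Adipocyte markers summed to 18314 and 17870 over 5 models, nearly all of it FABP4 (g3192, log2 -0.044). The other 4 adipocyte models all lay above a ratio of 1, so that the list's median log2 was 0.92, or 1.04 with 5 of 5 above under equal sums. The part of these cells in the histone values was not tested.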

How the data were processed

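The members and lists were chosen with earlier results of these data known. All values come from 1 table of the comparison that the authors deposited, and its name credits DESeq. The version, the aligner, the read counter and the genome build used are not given in the sources. Per the file headers it holds base means, a mean signal of scaled counts over all libraries and per condition. The authors deposited a fold, the ratio of the condition means, with a p-value and an adjusted p-value per model, and the similarity of each model to its best protein match as a fraction. In every row the overall mean is the mean of condition A weighted 0.33 and that of condition B weighted 0.67 (to 2 decimals; largest deviation from weights of 2 and 4 libraries 3.5e-10), so A was read as the 2 non-responders and B as the 4 responders. A further 6 columns per library match no label and were not used, so SDs, fits without single libraries, a new count test and the depth of each library were not analysed here. The tests are the authors' own. Each library is 1 animal, so the p-values rest on 6 animals, 4 responders and 2 non-responders.

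From the table were computed log2 of the responder over the non-responder mean, levels per 1000 bases of the longest transcript, sums, medians over models whose mean reached 5, and Benjamini-Hochberg adjustment for the alternatives, checked on simulated data (Python 3.11.15, pandas 2.3.3, numpy 2.4.6). Named models are every b4 model, called members, the 4 of highest mean and the 2 of smallest p in each class (macroH2A as the class of core histones), and for chromatin and S phase lists called models, the 2 of highest mean and the 2 of smallest p, with the highest for each cell type list. One model that this rule names is not reported here. Further models of SLBP, HMG-T, CYP17A1, ribonucleotide reductase and oocyte markers were named after their values were seen, as were further mRNA processing factors. List matches whose description named another protein were left out after the table was read, 2 of the chaperones and 5 of the adipocyte markers. No member identifier (0 of 53) was found in the reference gene table, so coordinates and sequences were not used.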

Additional observations from a re-analysis of the deposited data

How the results depend on the processing

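The number of members called was 0 of 52 in the authors' deposited table, and 0 as well at an adjusted p under 0.1, without transcripts under 300 bases, and with p-values re-adjusted over models whose mean reached 5 (smallest 0.982) or 20 (smallest 0.878). The median log2 of the members, 0.064 as reported, was 0.070 with no filter on the mean, 0.074 at a mean of at least 20, 0.19 at a mean of at least 50, 0.18 with the group sums set equal, 0.074 without transcripts under 300 bases and 0.052 with 1 model per name. The log2 of the summed member levels, -0.063, changed sign to 0.048 with equal sums and to 0.26 without B4, the member with the highest mean, and was -0.067 with the models described only as histone, the last chosen after seeing the data, as was leaving out B4 by name. Setting the sums equal turned 4 of 27 named members from just below to just above 0, g18838 (0.029), g25787 (0.10), g38018 (0.10) and g22863 (0.040). No named member changed sign with 1 added to the means or when centred on all models. No paired analysis applied, since each library is 1 eel and each eel is in only 1 group. A new count test and leaving out each library in turn were not run, because the columns per library were not used. Depth per library is unknown here.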
